A study of Saccharomyces cerevisiae with 11 samples.

Results

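The genes described here encode the small subunit processome and the later assembly factors of the 40S ribosomal subunit in the yeast Saccharomyces cerevisiae. They were chosen as a list of 52 gene symbols, and spots annotated with a symbol were averaged per gene on each array. All 52 were found on both array designs, among 5598 named genes on the design used for low phosphate and 5636 on that used for high phosphate. Of the 52, 36 had 2 spots and 16 had 1 spot.

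In growing yeast the nucleolus transcribes a long ribosomal RNA precursor, and the processome, a very large particle built around the U3 small nucleolar RNA, forms on its leading end as it emerges. The processome folds the small subunit RNA, holds it for modification and cleaves it away from its spacers, after which late factors accompany the particle to the cytoplasm and release it as a 40S subunit. The genes for these factors are known as part of the ribosome biogenesis regulon of yeast, a large group that rises and falls together with nutrient supply and growth rate.

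Cultures of strain S288C, each begun from a single colony, were grown in minimal medium with sucrose as the carbon source and phosphate at either 100 μM, called low phosphate here, or 1 mM, called high phosphate. Treated cultures received 2 μM arsenate, which resembles phosphate and is taken up by its transporters, and control cultures received sodium chloride in its place. RNA taken at 4, 8 and 10 h was measured on 2-colour arrays, with the arsenate culture in Cy5 and its control in Cy3 on every array. Low phosphate was covered by 6 arrays, a pair for each time. High phosphate was covered by 5, a pair each for 4 h and 8 h and a single array for 10 h.

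Values are log2 ratios with the arsenate culture in the numerator, so that 1 stands for 2-fold more transcript there. The log base is not stated with the deposited values and was taken as 2, and the direction was taken from the dyes. On that reading ARR2, which encodes arsenate reductase, stood between 5.23 and 8.00 on the 6 low phosphate arrays and between 3.34 and 3.59 on the 4 high phosphate arrays that measured it. No array had the dyes exchanged, so any dye preference of a spot remains in its ratios. The conditions were hybridised to different array designs, so phosphate and array design cannot be told apart, and no test was run across them. The labels do not say whether replicate arrays came from separate cultures, so a p-value measures only the spread between these arrays. A ratio from a whole culture also cannot tell a change in all cells from a change in some of them.

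Between 4484 and 5451 genes had a value on an array, and precision is limited by how few arrays there are. All 52 genes had a value on each low phosphate array. At high phosphate ESF2 had none on the first 8 h array, and IMP4 and UTP30 had none on the second. Where a gene had 2 spots, the median gap between them within an array was 0.13 to 0.20 at low phosphate and 0.09 to 0.29 at high phosphate, with single gaps up to 1.29 for NOP58 on the first 8 h array of high phosphate. Across the 52 genes the 2 arrays of a time correlated at 0.698, 0.681 and 0.733 for 4, 8 and 10 h of low phosphate, at 0.631 for 4 h of high phosphate and, over the 49 genes with both values, at 0.053 for 8 h of high phosphate. These correlations run across genes that share the same arrays and describe the arrays only.

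At low phosphate the assembly factor transcripts stood above control at 4 h, further above it at 8 h, and below it at 10 h. The median of the 52 genes was 0.27 and 0.50 on the 4 h arrays, 0.85 and 0.77 on the 8 h arrays, and -0.50 and -0.47 on the 10 h arrays. The medians of all genes on the same arrays were -0.07, 0.18, -0.09, -0.18, 0.04 and 0.08. Set against its own array median, the group therefore lay 0.34 and 0.32 higher at 4 h, 0.94 and 0.95 higher at 8 h, and 0.55 lower on both 10 h arrays. At high phosphate the medians of the 52 genes were -0.01 and -0.01 at 4 h, then -0.02 and -0.08 at 8 h, and 0.09 on the 10 h array. The spread of single genes at high phosphate was centred near 0 at each time, as the plot of the 52 genes by array shows. Set against its own array median, the group lay 0.13 and 0.12 higher at 4 h, 0.12 and 0.04 higher at 8 h, and 0.10 higher at 10 h.

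**Figure D1:**
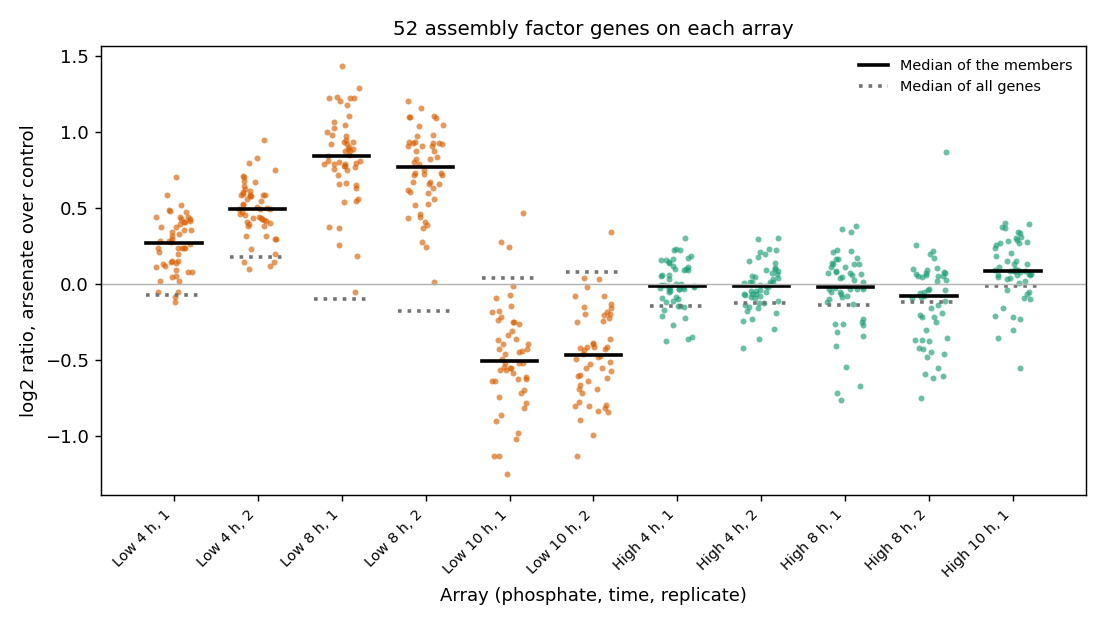
The log2 ratio of arsenate over control (vertical axis) of each of the 52 genes (points) on each of the 11 arrays (horizontal axis, named by phosphate, time in hours and replicate). Solid bars are medians of the 52 genes and dotted bars medians of all genes. The solid bars stand at 0.85 and 0.77 on the 8 h arrays of low phosphate and at -0.50 and -0.47 on its 10 h arrays, and between -0.08 and 0.09 at high phosphate.

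Counts of single genes follow the same order. They rest on limma fitted to 5207 genes of the low phosphate table, with Benjamini-Hochberg adjustment over all of them and a threshold of 0.05. At 4 h, 31 of the 52 genes rose and 0 fell, where 14.8% of all genes rose and 11.6% fell. At 8 h, 49 rose and 0 fell, against 18.4% and 30.5% of all genes. At 10 h, 1 rose and 35 fell, against 20.1% and 12.8% of all genes. The members' mean ratios ran from 0.03 for UTP18 to 0.77 for RIO1 at 4 h, from 0.14 for BFR2 to 1.32 for NOP56 at 8 h, and from -1.13 for LTV1 to 0.41 for UTP22 at 10 h.

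The count at 4 h depended on its second array and on array weights, and that at 10 h fell when either 10 h array was left out. The median of the 52 genes at 10 h was -0.47 or -0.50 without the first or second array, and -0.46 with both. Without the second 4 h array 12 genes rose at 4 h, against 5.91% of all genes, and with array weights 2 of the 52 did, near the 2.94% of all genes. UTP23 and RIO1 rose at 4 h in each of the 12 alternatives tried. Another 10, UTP6, NOP1, NOP56, BMS1, ROK1, BFR2, LCP5, NOP14, NOC4 and PNO1, lost their 4 h call with array weights alone. Without the first or the second 10 h array, 18 or 17 genes fell at 10 h, against 4.09% or 5.33% of all genes. The 13 that fell at 10 h in each of the 12 alternatives were UTP5, NOP56, NOP58, IMP3, BMS1, ECM16, ROK1, UTP7, UTP23, KRR1, NOP14, ESF1 and LTV1. The 8 h calls were firmer, with 41 of 49 present in each alternative. RIO1 and MPP10 lost their 8 h call without either 8 h array, and UTP18, RRP7, UTP7, UTP30, SOF1 and LCP5 lost it without the first, at adjusted p from 0.0505 to 0.376 in limma.

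The position of both arrays of a time gives the same picture without a model. At 4 h, 48 of the 52 genes lay above 0 on both arrays, against 39.1% of all genes, and at 8 h 51 did, against 30.3%. At 4 h 0 lay below 0 on both arrays and at 8 h 0 did, against 26.5% and 55.6% of all genes. At 10 h, 48 lay below 0 on both arrays, against 32.9% of all genes. The exceptions at 10 h were UTP22 and RRP7, above 0 on both arrays, where 48.2% of all genes were, and EMG1 and ESF2, with 1 array on each side of 0. Over the 3 times, 21 genes (40.4%) rose at 4 h, rose at 8 h and fell at 10 h, which 123 of the 5207 genes tested (2.36%) did. A further 12 rose at 8 h and fell at 10 h without a call at 4 h, which 2.75% of all genes did. Another 8 rose at 4 h and 8 h only, against 2.27% of all genes, and 7 rose at 8 h only, against 6.01%.

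**Figure D2:**
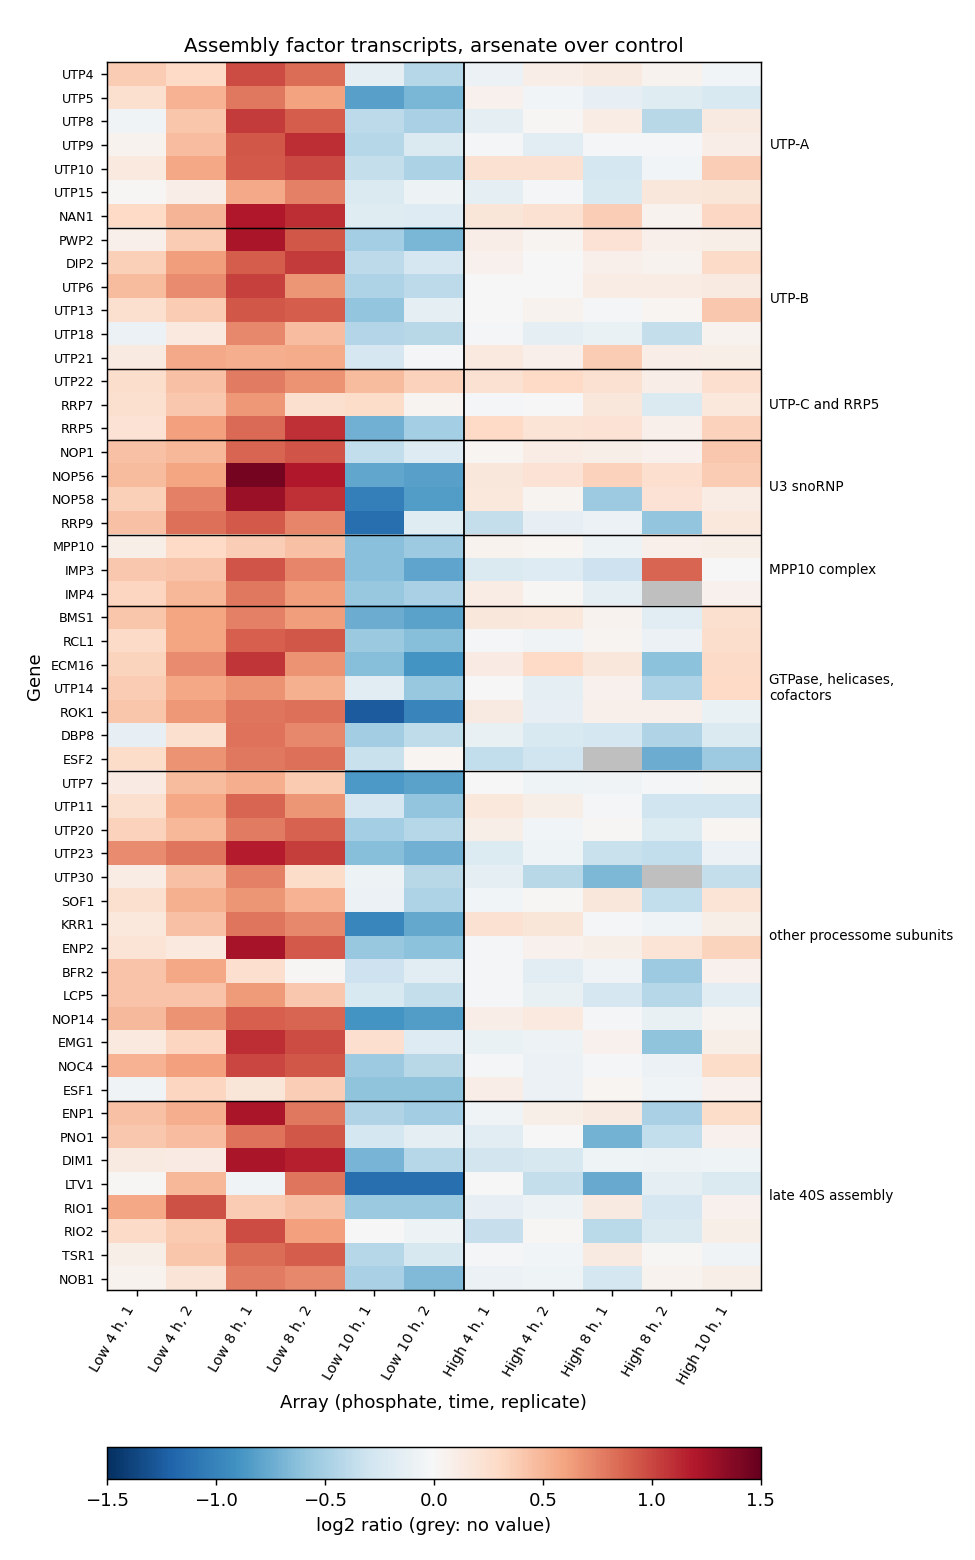
Mean log2 ratio over the spots of each gene (rows, grouped by role in assembly) on each array (columns), from blue for below control to red for above control, with grey for no value. The 8 h columns of low phosphate are red in nearly every row and the 10 h columns blue, with UTP22 and RRP7 the rows above 0 on both 10 h arrays. The high phosphate columns hold values of either sign, most of them small. Single 8 h values there reach 0.87 for IMP3 and -0.76 for LTV1.

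The differences between times were tested in the same fit. From 4 h to 8 h, 22 of the 52 genes rose and 0 fell, against 12.1% and 21% of all genes, with a median difference of 0.42. That number was 10 or 11 without the first or the second 8 h array, against 6.45% or 8.29% of all genes. It was 14 with array weights, against 8.51%, and 42 after each array was centred on its median, against 24.9%. Without the first 4 h array 18 rose and 2, BFR2 and RIO1, fell. Both 8 h arrays lay above both 4 h arrays for 38 genes and below both for 2, against 24.9% and 40.8% of all genes. The largest rise was that of DIM1 at 1.07 (SE 0.17, adjusted p = 0.000141), followed by ENP2 at 0.91 (SE 0.17, adjusted p = 0.000658).

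From 8 h to 10 h, 49 of the 52 genes fell and 0 rose, against 14.9% and 30.5% of all genes, with a median difference of -1.30. Of these 49 calls, 47 were present in each alternative. UTP21 lost its call without the first 10 h array (adjusted p = 0.0817), and UTP30 lost its call without the first 8 h or the second 10 h array (adjusted p up to 0.108). Both 10 h arrays lay below both 8 h arrays for 51 of the 52 genes and above both for 0, against 25.2% and 54.4% of all genes. The genes that missed the threshold were UTP22 at -0.32 (adjusted p = 0.13), RRP7 at -0.29 (adjusted p = 0.204) and BFR2 at -0.37 (adjusted p = 0.0903). Each of these 3 passed in at least 1 alternative, with adjusted p down to 0.00694, 0.0353 and 0.00612. From 4 h to 10 h, 46 fell and 0 rose, against 15.6% and 18.1% of all genes, with a median difference of -0.78. Both 10 h arrays lay below both 4 h arrays for 49 genes, against 28.1% of all genes. In the single-array omission with the fewest calls 33 fell. The 6 genes without a call from 4 h to 10 h were UTP15, UTP22, RRP7, UTP30, EMG1 and RIO2. The mean ratio was highest at 8 h and lowest at 10 h in 49 genes. RIO1 and BFR2 were highest at 4 h, and UTP22 was lowest at 4 h.

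**Figure D3:**
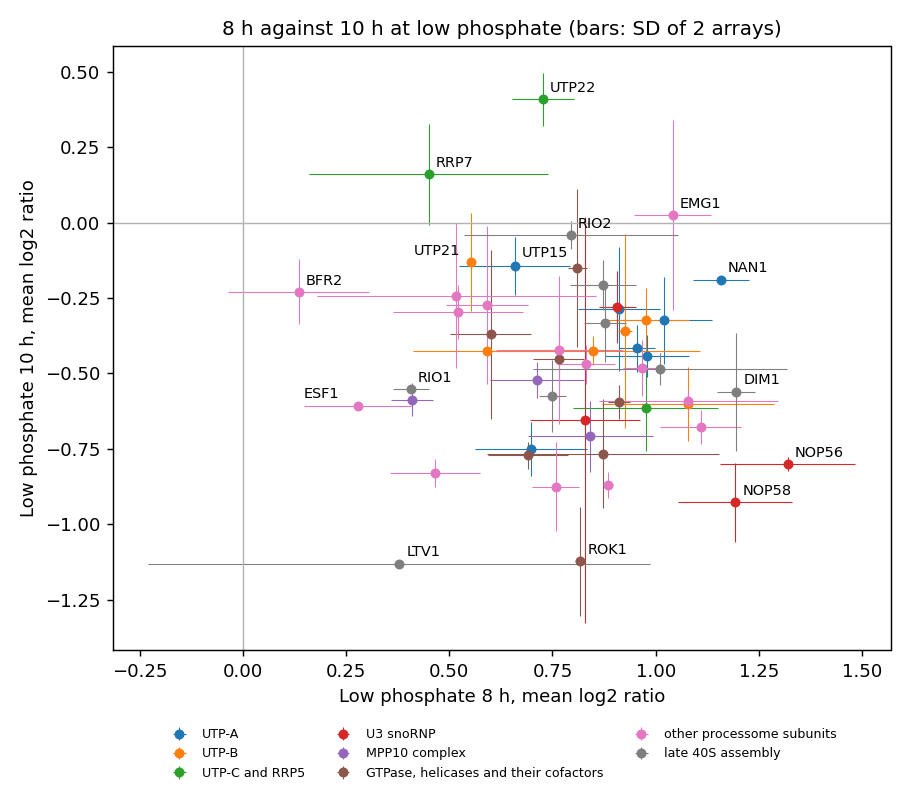
Mean log2 ratio at 8 h (horizontal axis) against that at 10 h (vertical axis) at low phosphate for each of the 52 genes, coloured by role, with bars for the SD of the 2 arrays of each time. Nearly all points lie in the lower right, above 0 at 8 h and below 0 at 10 h. UTP22, RRP7 and, barely, EMG1 (0.02 at 10 h) lie above 0 on both axes, and LTV1 has the widest bar at 8 h.

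The order of the particle's assembly gives the order of the sections that follow. UTP-A is the complex of proteins, most of them built of beta-propellers, that binds the leading spacer of the precursor first and is linked to its transcription. Of its 7 members, 4 rose at 4 h, 7 rose at 8 h and 3 fell at 10 h, with medians of 0.34, 0.95 and -0.32. NAN1, the UTP-A subunit highest at 8 h, read 0.30 and 0.51 at 4 h, then 1.21 and 1.11 at 8 h, and -0.18 and -0.20 at 10 h. Its 8 h arrays stood clear of all other arrays of low phosphate, and the difference of 10 h from 8 h was -1.35 (SE 0.17, adjusted p = 5.28e-06). At high phosphate NAN1 was above 0 on all 5 arrays, at 0.18, 0.23, 0.37, 0.05 and 0.31 in order of time.

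UTP15, the UTP-A subunit lowest at 8 h, read 0.02 and 0.10 at 4 h, then 0.56 and 0.75 at 8 h, and -0.21 and -0.08 at 10 h. It rose at 8 h by 0.66 (SE 0.12, adjusted p = 0.000172), while its 4 h and 10 h arrays all lay closer to 0 than its 8 h arrays. The remaining subunits, UTP4, UTP5, UTP8, UTP9 and the very long helical-repeat protein UTP10, rose at 8 h by 0.70 to 1.02. UTP5 fell furthest of the 7 at 10 h, to -0.81 and -0.69 on the 2 arrays, and the fall held without either array.

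UTP-B, the next complex to join, has 6 members, of which PWP2, DIP2, UTP13 and UTP21 are tandem beta-propeller proteins, UTP6 is a helical-repeat protein and UTP18 carries the motif that docks the exosome helicase Mtr4. Of the 6, 2 rose at 4 h, 6 rose at 8 h and 4 fell at 10 h, with medians of 0.33, 0.89 and -0.39. PWP2 was highest at 8 h, with 0.08 and 0.38 at 4 h, then 1.23 and 0.93 at 8 h, and -0.52 and -0.69 at 10 h. Its arrays did not overlap between any pair of times, and it fell by 1.68 from 8 h to 10 h (SE 0.18, adjusted p = 1.06e-06). UTP21 was lowest at 8 h, with 0.14 and 0.56 at 4 h, then 0.55 and 0.56 at 8 h, and -0.25 and -0.02 at 10 h. Its second 4 h array was as high as its 8 h arrays. UTP6 was the only UTP-B gene whose 4 h value exceeded 0.5, at 0.60 (SE 0.13, adjusted p = 0.00211), a call lost with array weights (adjusted p = 0.0863) and present in the other 11 alternatives.

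UTP-C joins UTP22 and RRP7 with casein kinase 2 and RRP36, and RRP5 is a long RNA-binding protein needed for both ribosomal subunits. This small group split at 10 h. RRP5 read 0.21 and 0.61 at 4 h, then 0.85 and 1.10 at 8 h, and -0.72 and -0.51 at 10 h, and fell by 1.59 from 8 h to 10 h (SE 0.18, adjusted p = 2.37e-06). UTP22 read 0.27 and 0.44 at 4 h, then 0.78 and 0.67 at 8 h, and 0.47 and 0.35 at 10 h, above 0 on all 6 arrays. It was the only one of the 52 genes that rose at 10 h (0.41, SE 0.12, adjusted p = 0.0138), a call lost without either 10 h array (adjusted p up to 0.308). RRP7 read 0.24 and 0.41 at 4 h, then 0.65 and 0.25 at 8 h, and 0.28 and 0.04 at 10 h, so its times overlapped.

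UTP22 rested on 1 spot and RRP7 on 2. At high phosphate UTP22 was again above 0 on each array, at 0.23 and 0.30 at 4 h, then 0.23 and 0.10 at 8 h, and 0.26 at 10 h. The other UTP-C genes were looked at after the values of UTP22 had been seen. RRP36 stood at 0.60 at 4 h, 0.78 at 8 h and -0.96 at 10 h (SE 0.13, adjusted p = 2.75e-05), so it fell at 10 h where UTP22 did not. Of the 4 casein kinase 2 genes, 0 changed at 4 h or 8 h. At 10 h 1, the catalytic subunit CKA2, rose by 0.46 (SE 0.12, adjusted p = 0.00953), where 20.1% of all genes rose. That call was lost without either 10 h array. CKA1, the other catalytic subunit, stood at -0.32 at 10 h.

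The U3 snoRNP carries the RNA that pairs with the precursor, bound by NOP56 and NOP58, which form the scaffold of every box C/D particle, by NOP1, the fibrillarin methyltransferase, and by RRP9, which is specific to U3. All 4 genes rose at 4 h and at 8 h, and 3 fell at 10 h, with medians of 0.55, 1.05 and -0.73. Of the 8 role groups this one had the highest median at 4 h and 8 h and the lowest at 10 h. NOP56 read 0.48 and 0.60 at 4 h, then 1.44 and 1.20 at 8 h, and -0.78 and -0.82 at 10 h. Its 8 h mean was 2.5-fold above control, and from 8 h to 10 h it fell by 2.12 (SE 0.17, adjusted p = 4.41e-08), the most of the 52 genes. NOP58, its partner, also fell by 2.12 (SE 0.18, adjusted p = 9.68e-08).

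RRP9 was the U3 gene lowest at 8 h, with 0.44 and 0.83 at 4 h, then 0.92 and 0.74 at 8 h, and -1.13 and -0.18 at 10 h. The gap between its 10 h arrays was the widest of the 52 genes at that time, and its 10 h call was lost without the first of them (adjusted p = 0.657). NOP1 rose at 8 h by 0.91 (SE 0.12, adjusted p = 4.59e-06) and stood at -0.28 at 10 h (adjusted p = 0.0764). At high phosphate NOP56 was above 0 on all 5 arrays, from 0.17 to 0.38, and RRP9 below 0 on 4 of them. The SNU13 gene, for the RNA-binding protein that starts assembly of the particle, was kept in a separate list of further factors and rose at 8 h by 1.29 (SE 0.12, adjusted p = 7.84e-08).

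**Figure D4:**
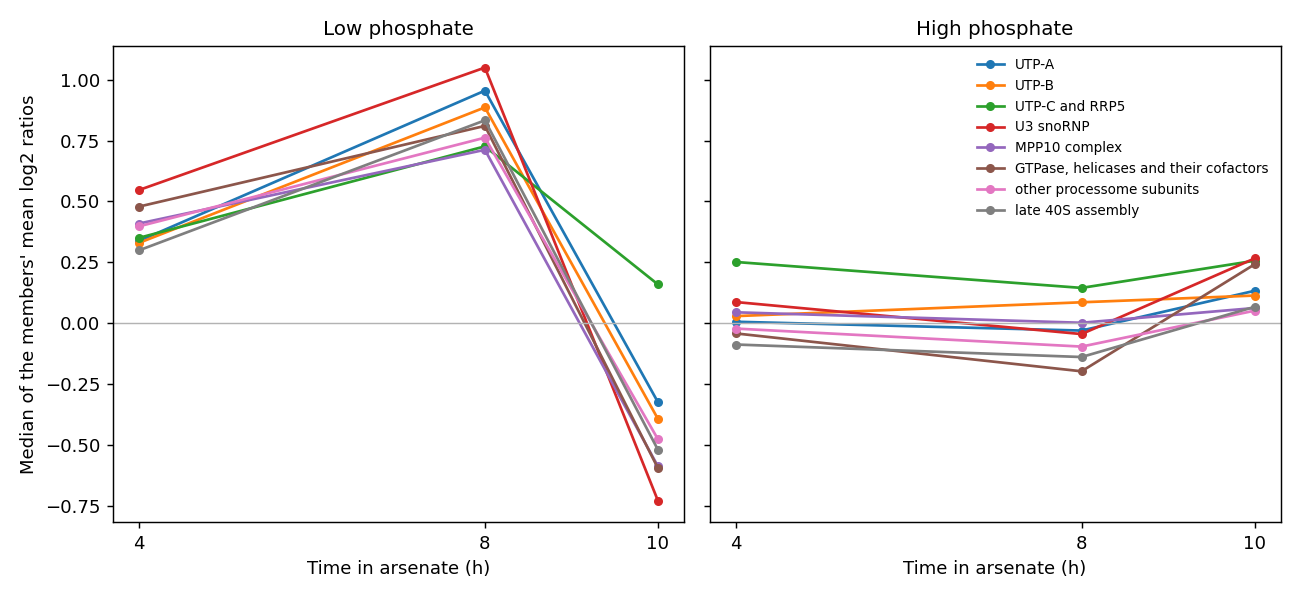
Median over the genes of each role of their mean log2 ratio (vertical axis) against time in arsenate (horizontal axis, in hours), for low phosphate on the left and high phosphate on the right. At low phosphate all 8 lines peak at 8 h, and the line of UTP-C and RRP5 stays above 0 at 10 h, at 0.16, while the U3 snoRNP line drops to -0.73.

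MPP10, IMP3 and IMP4 form the complex that helps U3 pair with the precursor. Of the 3 genes, 2 rose at 4 h, 3 rose at 8 h and 3 fell at 10 h. IMP3 read 0.41 and 0.43 at 4 h, then 0.95 and 0.73 at 8 h, and -0.63 and -0.79 at 10 h, and fell by 1.55 from 8 h to 10 h (SE 0.17, adjusted p = 1.39e-06). MPP10 read 0.08 and 0.30 at 4 h, then 0.37 and 0.45 at 8 h, and -0.63 and -0.55 at 10 h. MPP10 was the lowest of the complex at 8 h, and none of its times overlapped. IMP4 stood at 0.41, 0.71 and -0.52 at the 3 times. At high phosphate IMP3 read -0.31 and 0.87 on the 8 h arrays, the widest gap of the 49 genes measured on both, and it rested on 1 spot.

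The energy-using factors come next. BMS1 is the GTPase of the processome and RCL1 its partner, ECM16 is the helicase that strips U3 from the RNA and UTP14 its activator, ROK1 and DBP8 are DEAD-box helicases, and ESF2 stimulates DBP8. Of the 7, 6 rose at 4 h, 7 rose at 8 h and 6 fell at 10 h, with medians of 0.48, 0.81 and -0.59. RCL1 read 0.29 and 0.59 at 4 h, then 0.89 and 0.93 at 8 h, and -0.55 and -0.63 at 10 h. UTP14 read 0.38 and 0.58 at 4 h, then 0.67 and 0.53 at 8 h, and -0.17 and -0.57 at 10 h, so its first 2 times overlapped and its last stood apart. The 10 h call of RCL1 was lost without the second 10 h array (adjusted p = 0.0747), and that of UTP14 without either (adjusted p up to 0.687).

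ROK1 showed the largest fall from 4 h to 10 h of the 52 genes. It read 0.42 and 0.65 at 4 h, then 0.81 and 0.83 at 8 h, and -1.25 and -0.99 at 10 h, and the difference of 10 h from 4 h was -1.66 (SE 0.17, adjusted p = 1.67e-06). ESF2 and its target helicase DBP8 differed at 4 h, where ESF2 read 0.28 and 0.67 and DBP8 read -0.12 and 0.23. The difference between the 2 genes was not tested. At high phosphate ESF2 was the lowest of the 52 genes at each time, at -0.33 at 4 h, -0.75 on the 1 array of 8 h that measured it and -0.55 at 10 h, with adjusted p = 0.234, 0.146 and 0.384.

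The other 14 processome subunits include the scaffold proteins UTP20, NOP14 and NOC4, the beta-propeller proteins UTP7, SOF1 and ENP2, the RNA-binding protein KRR1, the methyltransferase EMG1, the nuclease-like protein UTP23, and UTP11, UTP30, BFR2, LCP5 and ESF1. Of these, 8 rose at 4 h, 12 rose at 8 h and 9 fell at 10 h, with medians of 0.40, 0.76 and -0.48. UTP23 read 0.71 and 0.80 at 4 h, then 1.18 and 1.04 at 8 h, and -0.64 and -0.72 at 10 h. It was second only to RIO1 at 4 h, passed in each alternative at all 3 times, and fell by 1.79 from 8 h to 10 h (SE 0.17, adjusted p = 2.34e-07).

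BFR2 ran differently from most, with 0.43 and 0.58 at 4 h, then 0.26 and 0.02 at 8 h, and -0.31 and -0.15 at 10 h. Its highest arrays were those of 4 h, and its 8 h value of 0.14 (adjusted p = 0.37) was the lowest of the 52 genes, with adjusted p from 0.0232 to 0.968 over the alternatives. ESF1 read -0.05 and 0.32 at 4 h, then 0.19 and 0.37 at 8 h, and -0.61 and -0.61 at 10 h, so that its fall at 10 h (-0.61, SE 0.13, adjusted p = 0.00131) came without a call at 8 h (adjusted p = 0.0747, and 0.00688 to 0.541 over the alternatives). EMG1 rose at 8 h by 1.04 (SE 0.13, adjusted p = 2.65e-06) and stood at 0.25 and -0.20 on the 10 h arrays. KRR1, NOP14 and UTP7 stood lowest of the 14 at 10 h, at -0.88, -0.87 and -0.83.

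The late factors finish the subunit. ENP1 and LTV1 bind the beak of the particle, TSR1 resembles a translational GTPase, DIM1 methylates the small subunit RNA, RIO1 and RIO2 are atypical kinases, and PNO1 holds the end of the RNA that the nuclease NOB1 cuts. Of the 8 genes, 3 rose at 4 h, 7 rose at 8 h and 6 fell at 10 h, with medians of 0.30, 0.83 and -0.52. DIM1 read 0.14 and 0.12 at 4 h, then 1.23 and 1.16 at 8 h, and -0.70 and -0.42 at 10 h. Its 3 times did not overlap. It fell by 1.75 from 8 h to 10 h (SE 0.17, adjusted p = 3.4e-07), and its call at 10 h was lost without the first array (adjusted p = 0.192).

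LTV1 was the late factor lowest at 8 h and the lowest of all 52 genes at 10 h. It read 0.02 and 0.50 at 4 h, then -0.05 and 0.81 at 8 h, and -1.13 and -1.13 at 10 h. Its 8 h mean of 0.38 did not pass (adjusted p = 0.062, and 0.00239 to 0.883 over the alternatives). The replicates of the 2 early times disagreed and those of 10 h were equal to 2 decimals, and LTV1 rested on 1 spot. ENP1, its partner on the particle, rose at 8 h by 1.01 (SE 0.13, adjusted p = 3.08e-06). The kinases differed in time course. RIO1 read 0.59 and 0.95 at 4 h, then 0.38 and 0.44 at 8 h, and -0.55 and -0.55 at 10 h, highest at 4 h. RIO2 read 0.29 and 0.40 at 4 h, then 0.98 and 0.61 at 8 h, and -0.01 and -0.08 at 10 h. NOB1 and PNO1 rose at 8 h by 0.75 and 0.87, and at 10 h NOB1 fell to -0.58 while PNO1 stood at -0.21 (adjusted p = 0.189).

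At high phosphate no gene was called on the full set of arrays. That held even for ARR3, the highest gene at 8 h with a mean ratio of 4.02, and for FRM2, the highest at 10 h with 5.07. The lack of calls therefore does not show that the members were unchanged. The limma fit covered 4941 genes, and 0 of the 52 genes passed at 4 h, 8 h or 10 h or between 4 h and 8 h, where 0% of all genes passed in either direction. At an unadjusted limma p under 0.05, 3 of the 52 passed at 4 h, 7 at 8 h, 4 at 10 h and 0 between 4 h and 8 h. Of the 4941 genes 1016, 1271, 613 and 352 did, so the members passed less often than genes in general in each comparison. Most of the genes that passed at 4 h and 8 h, 882 and 953, were lower. The array medians of all genes at these times ran from -0.14 to -0.12. Whether the smaller share of members follows from that offset was not tested. The lone 10 h array was assumed to vary like the others. At 4 h, 17 genes lay above 0 on both arrays and 21 below, against 21.8% and 59.1% of all genes. At 8 h the numbers were 13 and 18 of the 49 genes with both values, against 21.2% and 47% of all genes. Centring moved the median of the 52 genes from -0.01 to 0.12 at 4 h, from -0.06 to 0.06 at 8 h and from 0.09 to 0.10 at 10 h, so the sign of the group at 4 h and 8 h turns on where an array's zero is set. Without 1 of the 8 h arrays some genes passed at 8 h, most of them as lower, with IMP3, ESF2, EMG1 and PNO1 among them. In such a fit the 8 h value is a single array and the spread comes from the 4 h arrays only. Those calls therefore do not measure the disagreement between the 8 h arrays. IMP3 passed on 0.87 where the first 8 h array read -0.31, and EMG1 on -0.60 where the first read 0.06. PNO1 passed on -0.71 where the second read -0.37, and ESF2 on -0.75, its only 8 h value.

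Set side by side, both low phosphate arrays exceeded both high phosphate arrays in 42 of 52 genes at 4 h and in 48 of 49 at 8 h, against 46.2% and 38% of all genes measured on those arrays. At 10 h both low phosphate arrays lay below the high phosphate array in 46 of 52 genes, against 30.4% of all genes. Ratios above 0 on both low phosphate arrays and below 0 on both high phosphate arrays were found in 19 of the 52 genes at 4 h and 17 of 49 at 8 h, against 18.5% and 12.5% of all genes. The reverse at 10 h, on 2 arrays and 1, was found in 37 of 52, against 14.1% of all genes. These counts compare each array with its own zero, and the medians of all genes differ between the arrays. At 8 h NOP56 read 1.44 and 1.20 at low phosphate and 0.35 and 0.26 at high phosphate, and DIM1 read 1.23 and 1.16 against -0.06 and -0.07. These differences were not tested, because array design and phosphate cannot be told apart.

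Other genes of ribosome assembly were counted from lists made beside the members. Of all genes, 14.8% rose at 4 h, 18.4% rose at 8 h and 12.8% fell at 10 h. Of 35 measured further factors of the 40S subunit, 17 rose at 4 h, 32 rose at 8 h and 18 fell at 10 h. Fewer of these rose at 4 h without the second 4 h array, and fewer fell at 10 h without either 10 h array. The highest at 8 h were KRE33, the RNA acetyltransferase, at 1.44 (SE 0.14), DHR2, a DEAH-box helicase, at 1.31 (SE 0.14), and SNU13. The helicase activator SQS1 was the 1 gene that fell at 8 h, by 0.57 (SE 0.13, adjusted p = 0.00155), a call lost after centring (adjusted p = 0.0613). Of 68 assembly factors of the 60S subunit, 42 rose at 4 h, 66 rose at 8 h and 55 fell at 10 h, with medians of 0.41, 0.86 and -0.49, close to the 0.39, 0.83 and -0.46 of the 52 genes. Fewer of the 60S factors rose at 4 h without the second 4 h array, and fewer fell at 10 h without either 10 h array.

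The proteins built into the small subunit took another course at the last time. Of the 55 small subunit ribosomal protein genes, 25 rose at 4 h, 55 rose at 8 h and 52 rose at 10 h. Their medians were 0.33, 1.10 and 0.79. Of all genes, 14.8%, 18.4% and 20.1% rose at these times. From 8 h to 10 h 22 of the 55 genes fell and 1 rose, against 14.9% and 30.5% of all genes. Their median difference was -0.35, beside the -1.30 of the assembly factors. Fewer ribosomal protein genes fell from 8 h to 10 h in each fit without 1 array of 8 h or 10 h. Fewer rose at 4 h without the second 4 h array. Such fits leave a single array at a time, so their counts were not set against those of all genes. The difference between the lists was not tested.

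**Figure D5:**
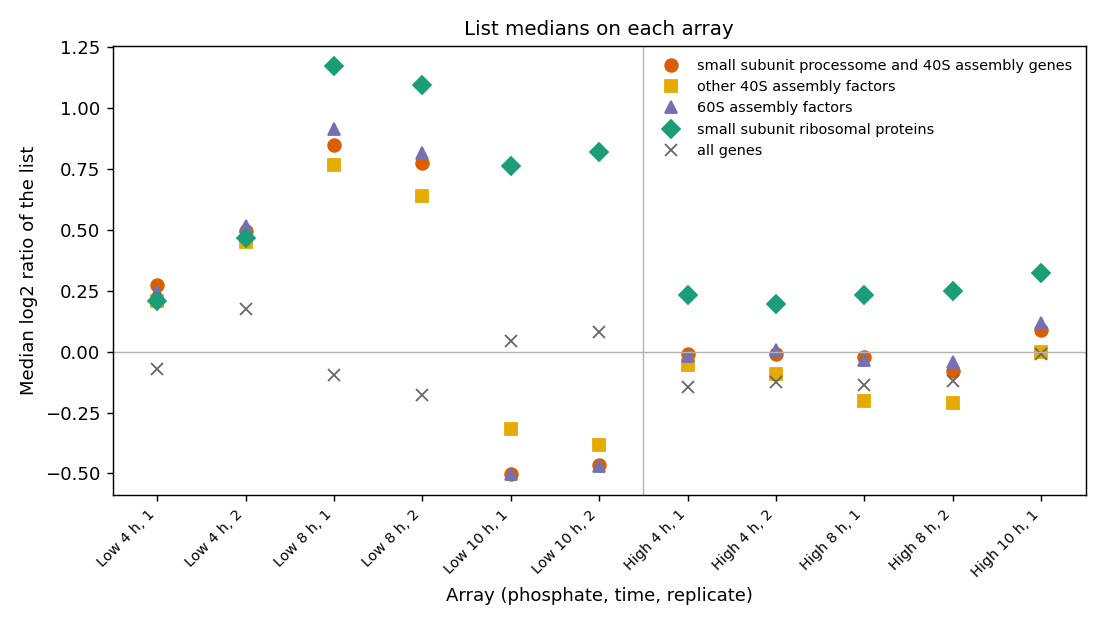
Median log2 ratio (vertical axis) of 4 gene lists and of all genes on each of the 11 arrays (horizontal axis), with the vertical line between low and high phosphate. The assembly factors of both subunits overlie one another, and at 10 h of low phosphate they lie below 0, at -0.50 and -0.47 for the 52 genes, while the small subunit ribosomal proteins lie above 0.

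Genes outside the subunit pathways behaved in several ways. All 6 genes of the H/ACA snoRNP, which guides pseudouridylation, rose at 8 h and fell at 10 h, against 18.4% and 12.8% of all genes. Without either 10 h array the 10 h calls of SHQ1, NOP10 and NAF1 were lost, as was the 8 h call of SHQ1 without the second 8 h array. Of the 14 genes of the RNA exosome, which trims the precursor, 10 rose at 8 h, against 18.4% of all genes. At 10 h 1 exosome gene rose and 5 fell, against 20.1% and 12.8% of all genes. Fewer exosome genes rose at 8 h without either 8 h array, and fewer fell at 10 h without either 10 h array. Of 14 measured regulators of ribosome biogenesis genes, 4 rose and 1 fell at 4 h, against 14.8% and 11.6% of all genes. At 8 h 1 rose and 4 fell, against 18.4% and 30.5%, and at 10 h 4 rose and 2 fell, against 20.1% and 12.8%. Fewer regulators were called at 4 h without the second 4 h array, at 8 h without the second 8 h array and at 10 h without the first 10 h array. TOD6, a repressor that binds the promoter element PAC, stood at 0.85, 0.94 and -0.49 and so moved with the assembly genes in sign, although its 10 h call was lost without the first 10 h array (adjusted p = 0.355). DOT6, its paralog, stood at 0.24, -0.29 and -0.39, with a call at 10 h that was lost without either 10 h array.

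SFP1, an activator of the regulon, stood at 0.02, 0.14 and 0.31 without a call at any time, and SCH9, a growth-controlling kinase, at 0.06, -0.12 and 0.19, also without one. STB3, a repressor that binds the promoter element RRPE, fell at 8 h by 0.56 (SE 0.12, adjusted p = 0.000795), a call lost without the second 8 h array (adjusted p = 0.054). TOR1, the kinase at the head of nutrient signalling, fell at 8 h by 0.74 (SE 0.13, adjusted p = 0.000167) and rose at 10 h by 0.63 (SE 0.13, adjusted p = 0.00161, and 0.0583 without the first 10 h array). TOR2, its paralog, rose at 4 h by 0.39 and fell at 8 h by 0.37 (adjusted p = 0.0355 and 0.0282), and TAP42, a phosphatase regulator under the TOR kinases, fell at 8 h by 0.35 (adjusted p = 0.0289). With STB3 these 3 are the 4 of 14 regulators that fell at 8 h, near the 30.5% of all genes that did. The 8 h calls of TOR2 and TAP42 were lost after centring and without either 8 h array (adjusted p up to 0.196 and 0.25), that of TAP42 also without the second 10 h array, and the 4 h call of TOR2 with array weights and without the second 4 h array. IFH1 and FHL1, which act at ribosomal protein genes, were called once each, IFH1 at 0.61 at 4 h and FHL1 at 0.37 at 10 h. The IFH1 call was lost with array weights and when the second 4 h array was left out, and the FHL1 call without either 10 h array.

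The 52 genes are scattered through the genome. They lie on 13 of 17 chromosomes, the mitochondrial one included, and in the RefSeq gene order no 2 of them are neighbours. A neighbour from the other assembly lists stands next to 6 of them, in NSA2 and LCP5, DBP8 and NMD3, UTP9 and RIX1, RSA3 and UTP13, NOG2 and ESF2, and RRP15 and NOC4. Of these pairs NSA2 and LCP5 are divergent, RRP15 and NOC4 convergent, and the other 4 lie on the same strand.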

How the data were processed

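The authors deposited one log ratio per spot and array, used here as log2 ratios of Cy5 over Cy3. Per the labels, spots with a flag value of 0 entered the normalization, whose method is not given in the sources used here. The log base was inferred from the range of values. Spots were named through the platform annotation, and 9202 of 10807 spots on the low phosphate design and 9271 of 10807 on the high phosphate design named 1 gene. Several spots of 1 gene were reduced to their mean per array. The fits took in genes measured at every time of a condition and used limma 3.58.1 (lmFit, eBayes) in R 4.3.3, 1 fit per table, with two-sided tests and Benjamini-Hochberg adjustment over all genes tested. SE are moderated ones. Residual degrees of freedom were 3 at low and 2 at high phosphate, and prior ones 15.5 and 1.72. Of the genes tested, 22 and 125 had no residual degree of freedom and took the pooled spread. The fit was tested on simulated data. Tables were prepared with Python 3.11.15 and pandas 2.3.3.

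By rule, per-array values were printed for the members highest and lowest at 8 h of low phosphate in each role and for those whose 8 h call differed from most, and other members could be named. Values of single arrays were also printed, outside this rule, for UTP5, UTP22, ROK1, DBP8, ESF2, EMG1, PNO1, RIO1 and RIO2. Up to 3 genes at each end of the other lists could be named, with SFP1, IFH1, FHL1, DOT6, TOD6, STB3 and SCH9. RRP36, CKA2 and CKA1 were named outside these rules, after the values of UTP22 had been seen. The calls of RRP36 were not recomputed singly in the alternatives. The members, roles and lists were chosen with earlier results of these data known. The array designs were not compared by a test. No sequence is shown.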

Additional observations from a re-analysis of the deposited data

Results flagged for a closer look

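The ratios of the 52 genes differed between times of low phosphate in limma, with 22 genes past the threshold between 4 h and 8 h, 49 between 8 h and 10 h, and 46 between 4 h and 10 h. Only the genes whose array values were printed by rule are listed here, and other members passed as well. Among the listed genes, the difference of 10 h from 8 h passed the test for NAN1 (-1.35), UTP15 (-0.80), PWP2 (-1.68), UTP21 (-0.68), RRP5 (-1.59), NOP56 (-2.12), RRP9 (-1.48), IMP3 (-1.55), MPP10 (-0.996), RCL1 (-1.51), UTP14 (-0.97), UTP23 (-1.79), DIM1 (-1.75), LTV1 (-1.51) and ESF1 (-0.89). At each time, genes were counted whose low phosphate arrays lay on 1 side of 0 and high phosphate arrays on the other. The difference was not tested, and no gene was called at high phosphate on the full set of arrays. At 4 h 19 of 52 genes lay above 0 on both low phosphate arrays and below 0 on both high phosphate arrays, and at 8 h 17 of 49 did, against 18.5% and 12.5% of all genes. At 10 h 37 of 52 genes lay below 0 on both low phosphate arrays and above 0 on the high phosphate array, against 14.1% of all genes.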

How the results depend on the processing

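The number of the 52 genes called was recomputed after centring arrays, on genes measured on every array, with the median of spots, a replicate block, robust empirical Bayes and array weights, and without each array. Array weights gave 2 at 4 h of low phosphate (31 in the reported fit). Between 4 h and 8 h centring gave 42 and array weights gave 14 (22 reported). Leaving out 1 array gave 12 to 38 at 4 h, 42 to 51 at 8 h, 17 to 42 at 10 h, 10 to 31 between 4 h and 8 h, 48 to 51 between 8 h and 10 h and 33 to 47 between 4 h and 10 h, and at high phosphate 0 to 3 at 8 h and 0 to 0 in the other comparisons. The cause was not tested, beyond the smaller number of arrays where 1 was left out. No member, and no other gene whose calls were recomputed singly, turned from one called direction to the other. Of the calls, 2 of 31 at 4 h, 41 of 49 at 8 h, 13 of 36 at 10 h, 7 of 22 between 4 h and 8 h, 47 of 49 between 8 h and 10 h and 27 of 46 between 4 h and 10 h were present in each alternative. Among all genes tested, centring turned 770 higher and 605 lower at 4 h into 889 and 925, 956 higher and 1590 lower at 8 h into 1451 and 1186, 1049 and 667 at 10 h into 1041 and 1065, 631 and 1094 between 4 h and 8 h into 1299 and 851, and 1588 and 775 between 8 h and 10 h into 1127 and 1265. Counts of all genes moved with those of the 52, to 153 higher at 4 h with array weights, 305 higher at 4 h without its second array, and, between 4 h and 8 h, 334 or 431 higher without the first or second 8 h array and 443 with array weights. The labels number the arrays but do not say that a number pairs them. Deviations of same-numbered arrays correlated at 0.109, 0.136 and 0.19 across genes at low phosphate and at -0.025 at high phosphate. With the replicate block the counts were 29, 50, 35, 20, 49 and 46 in the order above, none changed by over 1.5 times. Without the lone 10 h array of high phosphate there is no value for that time. Signal over background was not used here.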
